A study of Mus musculus with 6 samples.

Results

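The 10 genes described here, Guca1b, Guca1a, AI661453, Taf8, Bysl, Med20, Usp49, Tomm6, Tfeb and Mdfi, are close neighbours of Frs3 on mouse chromosome 17. Frs3 encodes FRS2beta, a docking protein of receptor tyrosine kinase signalling, and it is the gene inactivated in this study. The neighbours were chosen by position, and their probes were found through the RefSeq transcript that each array probe is assigned to. They carried 12 of the array's 55681 distinct probes, and all 10 were among the 20660 genes that could be named. RNA was measured in spheres, which are cell clusters grown in suspension without serum, from mammary tumors of FRS2beta knock-out mice (knockout, n = 3 arrays) and of FRS2beta hetero mice (hetero, n = 3 arrays), so both groups carried at least 1 inactivated copy. The medium of both was DMEM/F12 supplemented with B27, heparin (2 mg/mL) and 20 ng/mL each of EGF and bFGF. Strain, tumor model, age of the mice and the make of the Frs3 allele are not stated in the labels. The labels do not say whether replicates came from separate animals or cultures, so p-values reflect only how far these samples spread, and that spread may be technical.

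Neighbouring genes on a chromosome need not share a function, and these act in very different parts of the cell. Guca1a and Guca1b encode calcium sensors that regulate guanylate cyclase in photoreceptors of the retina. Taf8 and Med20 encode subunits of TFIID and Mediator, the complexes that bring RNA polymerase II to promoters, and Usp49 encodes a deubiquitinase of histone H2B. Bysl encodes bystin, needed to assemble the small ribosomal subunit, and Tomm6 a small subunit of TOM, the entry gate for proteins into mitochondria. Tfeb encodes a transcription factor that turns on lysosome and autophagy genes, and Mdfi a protein that binds and inhibits myogenic transcription factors and TCF/LEF factors. AI661453 carries only a systematic name in the files.

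Of the 10 flanking genes, 9 were well above background on all 6 arrays and were tested, and all 9 differed between the genotypes: 4 were higher and 5 were lower in knockout spheres. Guca1a was 4.71-fold lower and AI661453 was 2.15-fold higher, while the other 7 differed by 1.13-fold to 1.42-fold. The threshold was an adjusted p of 0.05 in limma across 15838 genes, and 60.4% of all genes tested passed it (27.9% higher and 32.5% lower). Among genes well above background on all 6 arrays 62.0% passed. Both a call and a difference of 2-fold or more were seen in 2 of the 9, against 10.1% of all genes tested. On all 9 genes the arrays of the genotypes did not overlap, which held for 68.9% of all genes tested. The median absolute log2 fold change was 0.30 in the 9 genes and 0.22 in all genes. These shares are descriptions of 9 genes, and no test set the neighbours against the rest. When arrays were scaled to spike-in spots instead of the 75th percentile, 0.42 was added to every log2 fold change, 8 of the 9 genes were higher and only Guca1a was lower. The all-gene split was then 11487 higher and 1260 lower, in place of 4416 higher and 5155 lower.

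**Figure D1:**
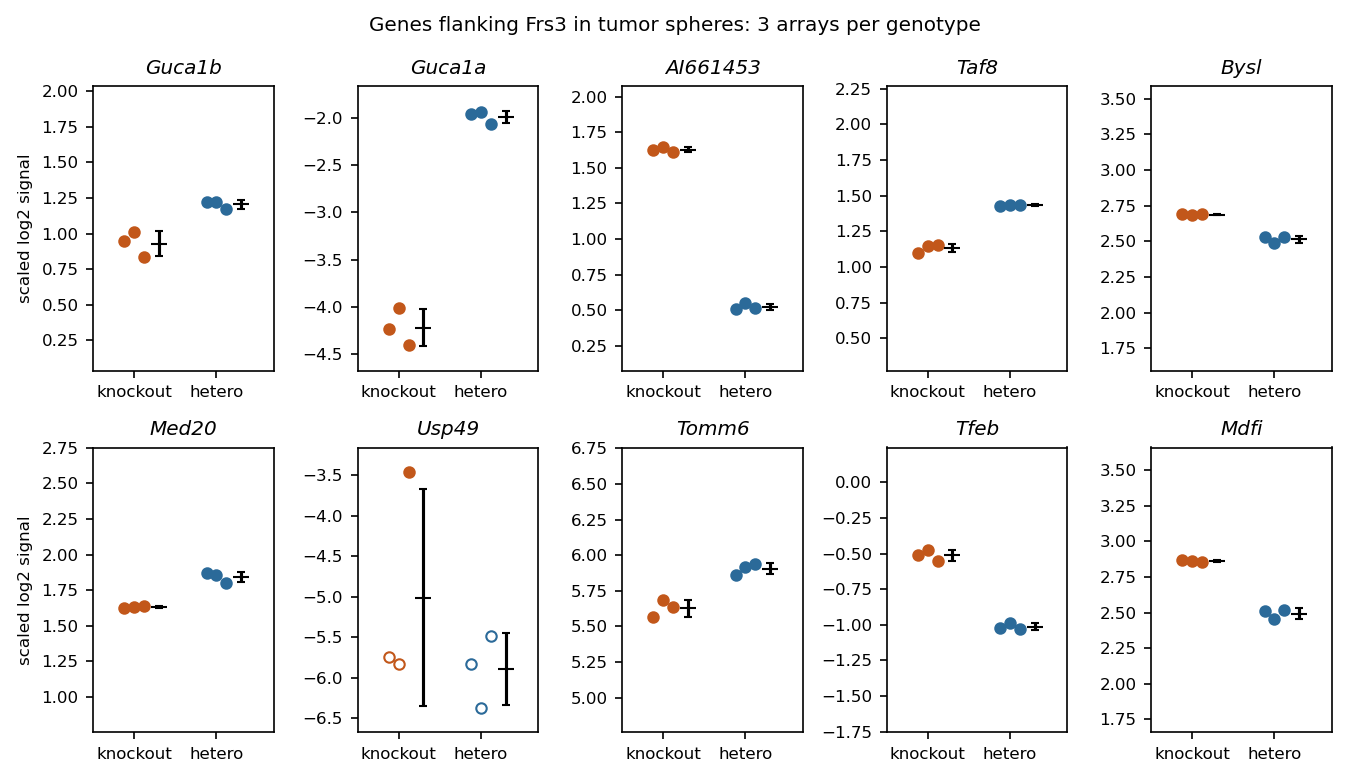
Scaled log2 signal (vertical axis, 0 is the 75th percentile of an array) of the 10 flanking genes in chromosome order, with knockout arrays in orange left of hetero arrays in blue. Each dot is an array, open dots were not well above background, and bars give mean ± SD (n = 3); in each gene but Usp49 the genotypes do not overlap.

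Frs3 itself gives no check of the genotypes. Its single probe, for transcript NM_144939, had scaled log2 signals of -7.88, -7.95 and -7.36 in knockout spheres and of -7.30, -4.64 and -6.01 in hetero spheres. It was well above background on 0 of 3 knockout arrays and on 1 of 3 hetero arrays, and its hetero mean was under the weakest signal that counted as detected, so no fold is given. Whether the probe lies in the inactivated part of the gene is not known here. Throughout, a scaled log2 signal is the log2 of the processed spot intensity minus the 75th percentile of its array, and a log2 fold change is knockout over hetero.

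Markers of epithelial cells were higher and markers of macrophages lower in the knockout spheres. The summed scaled signal (in multiples of the 75th percentile) of 10 luminal epithelial markers was 131 to 133 on knockout arrays and 12.3 to 12.8 on hetero arrays, and all 10 passed as higher. For 7 basal epithelial markers it was 94.5 to 94.9 on knockout and 21.3 to 21.4 on hetero arrays, with 6 higher. For 9 macrophage markers it was 7.51 to 7.59 on knockout and 22.8 to 23.0 on hetero arrays, and all 9 were lower. For 10 fibroblast markers it was 1842 to 1908 on knockout and 2364 to 2580 on hetero arrays, with 2 higher and 7 lower. With spike-in scaling 3 fibroblast markers were higher and 5 lower, and their median log2 fold change was -0.11 in place of -0.53. The numbers higher and lower were then 10 and 0 for luminal, 7 and 0 for basal and 0 and 8 for macrophage markers. In RNA of whole spheres, fewer cells of a type and less RNA per cell cannot be told apart, and the part of such shifts in the differences of the flanking genes was not tested.

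The retinal calcium sensor gene Guca1a, read by a probe for NM_008189, had the largest difference of the 9. Its scaled log2 signal was -4.24, -4.02 and -4.41 in knockout spheres, against -1.96, -1.94 and -2.06 in hetero spheres. All 3 knockout arrays lay below every hetero array. Guca1a fell by 2.23 ± 0.11 log2 units (SE, adjusted p = 2.72e-05), and 3.21% of all genes tested had a larger absolute log2 fold change. It is a dim gene: the unscaled processed intensity was 24.6, 30.1 and 22.6 on the knockout arrays and 106, 105 and 99.6 on the hetero arrays. With normexp background correction, whose offset of 50 shrinks dim genes, the log2 fold change was -1.10 (adjusted p = 1.70e-07).

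The RefSeq promoter window of Guca1a (GRCm38.p6, chr17:47400557-47400856, minus strand, 250 bases before to 50 after the start) is shown because this gene had the largest change. Capitals mark GGATTA, the core recognised by the photoreceptor factors CRX and OTX2. GGATTA or its reverse complement TAATCC stood in 7.06% of 32851 mouse promoter windows of this length, and among the flanking genes also once in the Tomm6 window. No window was available for Guca1b, so whether it carries this core is not known here.
Guca1a: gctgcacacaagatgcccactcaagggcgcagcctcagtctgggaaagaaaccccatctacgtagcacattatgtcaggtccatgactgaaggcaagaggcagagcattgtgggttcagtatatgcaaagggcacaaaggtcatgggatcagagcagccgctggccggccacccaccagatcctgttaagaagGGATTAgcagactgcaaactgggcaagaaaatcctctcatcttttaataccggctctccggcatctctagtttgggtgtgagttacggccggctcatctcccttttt

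Its neighbour and paralog Guca1b differed far less, and its 2 probes did not give the same call. The brighter probe for NM_146079 read 0.95, 1.01 and 0.84 in knockout spheres and 1.23, 1.22 and 1.17 in hetero spheres, without overlap. By this probe Guca1b fell by 0.27 ± 0.05 log2 units (SE, adjusted p = 0.00536). The dimmer probe for the same transcript read -3.82, -3.50 and -4.04 in knockout spheres and -3.71, -3.73 and -3.54 in hetero spheres. Those values overlapped, the log2 fold change was -0.12 ± 0.15 (SE), and it did not pass among all probes (adjusted p = 0.53, with 47.0% of 35427 probes called). With the 2 probes averaged the Guca1b call was lost (-0.20, adjusted p = 0.117), and with spike-in scaling its sign turned (0.14). A ratio taken within an array is free of any scaling by 1 constant per array, though not of quantile scaling or of background correction. The log2 ratio of Guca1a to Guca1b was -5.15 ± 0.11 in knockout spheres and -3.19 ± 0.04 in hetero spheres (SD, n = 3 each). It was taken with the brighter Guca1b probe and was lower on every knockout array. With normexp background correction the log2 fold changes were -1.10 for Guca1a and -0.24 for Guca1b.

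Other phototransduction genes were mostly not detected in the spheres. Of 14 listed besides these 2, 8 were on no array well above background, among them Gucy2e and Gucy2f, the guanylate cyclases that the Guca1 proteins regulate, and Rd3, Pde6b, Cnga1, Grk1 and Prph2. The other 6 were tested and 0 passed limma's adjusted p of 0.05, with 1 at an unadjusted p under 0.05. That was the calcium sensor gene Rcvrn, at -0.47 ± 0.16 (SE, adjusted p = 0.051), which passed with normexp background correction (-0.29, adjusted p = 0.00502). The phosphodiesterase subunit gene Pde6g stood at -0.22 ± 0.20 (SE, adjusted p = 0.378). Pde6a, another such gene, was well above background on 3 of 3 knockout and 0 of 3 hetero arrays, and its difference did not pass (adjusted p = 0.163). With spike-in scaling 2 of the 6 passed as higher, Pde6a among them (adjusted p = 0.0163).

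The tested genes whose profile was most like that of Guca1a were Ncf1, Slc16a9 and Igfbp4. Likeness was measured as the root mean square difference over the 6 arrays between profiles centred on each gene's own mean, and it was 0.0706, 0.0856 and 0.0894 log2 units. Ncf1 encodes a subunit of the phagocyte NADPH oxidase, Slc16a9 a monocarboxylate transporter family member and Igfbp4 an IGF-binding protein. Their log2 fold changes were -2.24 ± 0.07, -2.26 ± 0.06 and -2.34 ± 0.06 (SE). Values near that of Guca1a follow from choosing genes by this likeness.

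AI661453 was higher in knockout spheres by both of its probes for NM_145489. The brighter probe read 1.63, 1.65 and 1.61 in knockout spheres, against 0.51, 0.55 and 0.51 in hetero spheres. The dimmer probe read -0.73, -0.78 and -0.78 in knockout spheres and -2.10, -2.23 and -2.13 in hetero spheres. Neither probe overlapped between genotypes. AI661453 rose by 1.10 ± 0.02 log2 units by the brighter probe (SE, adjusted p = 1.55e-06) and by 1.39 ± 0.05 by the dimmer one (SE, adjusted p = 2.1e-05 among all probes). A larger absolute change was seen in 9.45% of all genes tested. Guca1a and AI661453, which moved in opposite directions, are both overlapped in RefSeq by another gene model, 1700001C19Rik. It was not well above background on enough arrays to be tested.

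The promoter window of AI661453 (GRCm38.p6, chr17:47436389-47436688, plus strand) is printed as that of the largest rise. Capitals mark the GC box GGGCGG, which occurs 5 times here. That letter run, or its reverse complement CCGCCC, was found in 35.7% of windows.
AI661453: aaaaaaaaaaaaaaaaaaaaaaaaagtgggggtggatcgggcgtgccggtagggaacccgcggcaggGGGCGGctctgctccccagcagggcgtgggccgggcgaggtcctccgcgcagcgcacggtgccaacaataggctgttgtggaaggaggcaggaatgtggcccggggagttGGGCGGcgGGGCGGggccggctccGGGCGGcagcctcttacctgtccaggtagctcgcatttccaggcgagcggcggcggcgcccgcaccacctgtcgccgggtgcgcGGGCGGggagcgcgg

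The general transcription genes Taf8 and Med20 were slightly lower in knockout spheres relative to the 75th percentile. Taf8, by its probe for NM_022015, read 1.10, 1.15 and 1.15 in knockout spheres, against 1.43, 1.44 and 1.44 in hetero spheres. It fell by 0.30 ± 0.02 log2 units (SE, adjusted p = 0.000188), and with spike-in scaling it was higher by 0.12. Med20, by its probe for NM_020048, read 1.62, 1.63 and 1.64 in knockout spheres and 1.87, 1.86 and 1.80 in hetero spheres. Neither gene overlapped between genotypes. Med20 fell by 0.21 ± 0.03 (SE, adjusted p = 0.00119). Its call was lost with scaling to the array median (-0.19, adjusted p = 0.0679) and its sign turned with spike-in scaling (0.21).

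Taf8 has a pair of E-boxes in its promoter window (GRCm38.p6, chr17:47502242-47502541, minus strand), which are shown because CACGTG is the core that TFEB, the product of another flanking gene, recognises. Capitals mark CACGTG, its own reverse complement, and a GC box on the other strand, CCGCCC. The E-box was present in 7.15% of promoter windows, and in none of the other 11 windows of the flanking genes.
Taf8: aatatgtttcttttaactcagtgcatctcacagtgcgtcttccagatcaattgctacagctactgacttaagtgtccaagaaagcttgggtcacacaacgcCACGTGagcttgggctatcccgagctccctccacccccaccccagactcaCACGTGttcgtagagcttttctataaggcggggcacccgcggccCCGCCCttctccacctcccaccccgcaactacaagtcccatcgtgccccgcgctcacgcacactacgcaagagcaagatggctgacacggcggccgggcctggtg

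Partner subunits passed in both directions relative to the 75th percentile, but with spike-in scaling 12 TFIID subunits were higher and 0 lower, and 28 Mediator subunits were higher and 1 lower. Of 13 other TFIID subunits tested, 2 were higher and 2 lower, with a median log2 fold change of 0.01, against 60.4% called and a median of -0.03 over all genes. Taf9b and Taf13 rose by 0.44 ± 0.05 and 0.26 ± 0.04, and Taf6 fell by 0.20 ± 0.02 (SE). Taf6 was higher with spike-in scaling (0.22), and its call was lost with median scaling (adjusted p = 0.0513). Of 30 other Mediator subunits tested, 6 were higher and 5 lower, with a median of 0.01. Med14 rose by 0.69 ± 0.04, and Med24 and Med25 passed as lower, at -0.62 ± 0.03 and -0.16 ± 0.03 (SE). Med25 was higher with spike-in scaling (0.25), and its call was lost with median scaling (adjusted p = 0.109).

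Usp49 was close to background. Its probe for NM_198421 read -5.74, -5.83 and -3.46 in knockout spheres and -5.84, -6.37 and -5.48 in hetero spheres. It was well above background on 1 of 3 knockout arrays, replicate 3, and on 0 of 3 hetero arrays, so it was not tested. No fold is given, since 2 of the 3 knockout arrays were not above background either. Of 10 other writers and erasers of ubiquitin on histone H2B, 2 passed the threshold, or 20%, against 60.4% of all genes tested. The conjugating enzyme gene Ube2a rose by 0.24 ± 0.03 and the ligase gene Rnf40 fell by 0.09 ± 0.02 (SE). Rnf40 was higher with spike-in scaling (0.32), and its call was lost with median scaling (adjusted p = 0.367). Eny2, a subunit of the SAGA deubiquitinating module, stood at -0.08 ± 0.04 (SE, adjusted p = 0.138). With spike-in scaling 9 of the 10 were higher and 0 lower.

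The ribosome assembly gene Bysl was higher relative to the 75th percentile while its head-to-head neighbour Med20 was lower, and both were higher with spike-in scaling (0.59 and 0.21). Bysl, by its probe for NM_016859, read 2.69, 2.68 and 2.69 in knockout spheres, against 2.53, 2.49 and 2.53 in hetero spheres. The groups did not overlap, and Bysl rose by 0.17 ± 0.02 log2 units (SE, adjusted p = 0.00154), the smallest difference of the 9. Within each array, where scaling by a constant cancels, the log2 ratio of Bysl to Med20 was 1.06, 1.05 and 1.06 in knockout spheres and 0.66, 0.63 and 0.73 in hetero spheres. The ratio was 0.38 higher in knockout spheres. This ratio and that of Guca1a to Guca1b were chosen after the values were seen, so they carry no test. Of 28 other genes of small ribosomal subunit assembly tested, 11 were higher and 1 lower, with a median of 0.08. That was 42.9% called, against 60.4% called and a median of -0.03 over all genes. The assembly factor genes Pno1, Riok2 and Nop58 rose by 0.31 ± 0.03, 0.20 ± 0.02 and 0.26 ± 0.04 (SE). With quantile scaling 15 of the 28 were higher and 0 lower, and with spike-in scaling 28 and 0.

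Bysl and Med20 are transcribed away from each other, and their RefSeq promoter windows share 192 bases. The Med20 window (GRCm38.p6, chr17:47611335-47611634, plus strand) is shown with the bases it shares with the Bysl window in capitals. It holds 1 GC box, within the shared bases.
Med20: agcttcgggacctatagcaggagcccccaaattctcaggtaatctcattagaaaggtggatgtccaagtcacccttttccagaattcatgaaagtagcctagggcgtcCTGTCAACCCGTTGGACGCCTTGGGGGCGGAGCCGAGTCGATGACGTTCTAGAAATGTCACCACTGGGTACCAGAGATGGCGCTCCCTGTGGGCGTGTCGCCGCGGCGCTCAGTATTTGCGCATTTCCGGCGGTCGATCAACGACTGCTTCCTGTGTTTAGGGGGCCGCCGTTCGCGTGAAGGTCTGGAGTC

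Tomm6 lies directly beside Frs3, and its gene model overlaps those of Frs3, Usp49, Gm20517 and Tomm6os in RefSeq. Its probe for NM_001164729 was bright, at 5.56, 5.68 and 5.63 in knockout spheres and 5.86, 5.91 and 5.94 in hetero spheres. The groups did not overlap, and Tomm6 fell by 0.28 ± 0.04 log2 units (SE, adjusted p = 0.00227). The value was -0.14 with quantile scaling and 0.14 with spike-in scaling. Of the 7 other TOM subunits tested, 5 were higher and 0 lower, with a median of 0.13. That was 71.4% called, against 60.4% called and a median of -0.03 over all genes. The receptor genes Tomm70a and Tomm20 rose by 0.36 ± 0.03 and 0.32 ± 0.04, and the channel gene Tomm40 by 0.13 ± 0.03 (SE). The Tomm40 call was lost with median scaling (adjusted p = 0.156). With quantile scaling 6 of the 7 were higher and 0 lower, and with spike-in scaling 7 and 0. The log2 fold change of Tomm6 lay below those of all 7 under the 75th percentile, quantile and spike-in scalings alike.

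On the other side of Frs3, Tfeb and Mdfi were higher in knockout spheres. Tfeb, by its probe for NM_001161722, read -0.51, -0.47 and -0.55 in knockout spheres, against -1.03, -0.99 and -1.03 in hetero spheres. Tfeb rose by 0.50 ± 0.03 log2 units (SE, adjusted p = 6.35e-05). Mdfi, by its probe for NM_001109973, read 2.87, 2.86 and 2.86 in knockout spheres and 2.51, 2.45 and 2.51 in hetero spheres. Mdfi rose by 0.37 ± 0.03 (SE, adjusted p = 0.000128). Neither gene overlapped between genotypes, and both stayed higher under all 17 alternative settings, Tfeb by 0.40 to 0.92 and Mdfi by 0.35 to 0.79.

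The related factors Tfe3, Mitf and Tfec, named beyond the rule for named genes, stood at -0.01 ± 0.04, 0.04 ± 0.03 and 0.16 ± 0.13 (SE, adjusted p = 0.865, 0.301 and 0.313). With spike-in scaling all 3 passed as higher (0.41, 0.45 and 0.58, adjusted p = 0.000209, 0.00011 and 0.00457), and with quantile scaling Mitf passed (0.10, adjusted p = 0.0321). Of 41 MiT factors, their regulators and lysosomal target genes tested besides Tfeb, 9 were higher and 15 lower, with a median of -0.02. That was 58.5% called, against 60.4% of all genes tested. The lysosomal genes Psap, a sphingolipid activator precursor, and Scpep1, a carboxypeptidase, were lower, at -0.69 ± 0.03 and -0.57 ± 0.02 (SE). With quantile scaling 15 of the 41 were higher and 13 lower. With spike-in scaling 30 were higher and 7 lower, and both of these genes were still lower (-0.28 and -0.15). All 9 tested partners of MDFI passed, 5 higher and 4 lower, with a median of 0.27. Over all genes 60.4% were called, and the median was -0.03. The TCF/LEF factor gene Lef1 and the myogenic factor gene Myog rose by 3.17 ± 0.08 and 0.98 ± 0.02, and Tcf7l1 fell by 0.91 ± 0.03 (SE). With quantile scaling 5 of the 9 were higher and 4 lower, and with spike-in scaling 7 and 1.

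**Figure D2:**
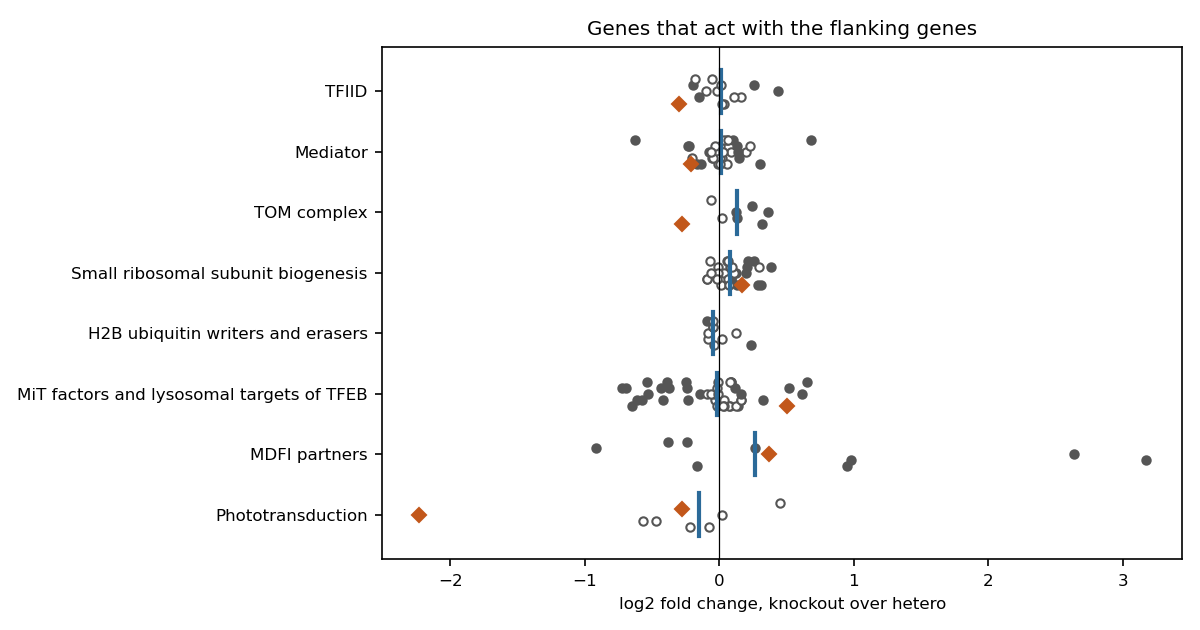
Log2 fold change, knockout over hetero (horizontal axis), of genes whose products act with those of the flanking genes, in 8 lists. Circles are list genes, orange diamonds the flanking genes, filled symbols passed an adjusted p of 0.05 and blue bars are list medians without the flanking genes; Tomm6 lies left of all other TOM genes and Guca1a left of all other phototransduction genes.

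The size of the differences was not ordered by closeness to Frs3. Tomm6, the nearest of the 10 genes, differed by -0.28, and Guca1b, 11 protein-coding genes away, by -0.27. Among the members before Frs3, 2 were higher and 5 lower, and both members after it were higher. Between the outermost of the 10 genes, 2 others were tested, the cyclin gene Ccnd3 and the pepsinogen gene Pgc. Ccnd3 fell by 0.22 ± 0.03 (SE, adjusted p = 0.00136), but with spike-in scaling it was higher by 0.20. Pgc stood at -0.03 ± 0.19 (SE, adjusted p = 0.909). With quantile scaling the Ccnd3 call was lost (adjusted p = 0.087). Of the 25 tested genes nearest on each side besides the 10, 30 of 50 passed, 11 higher and 19 lower, or 60.0%. Among the other tested genes of chromosome 17, 477 of 790 passed, or 60.4%.

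**Figure D3:**
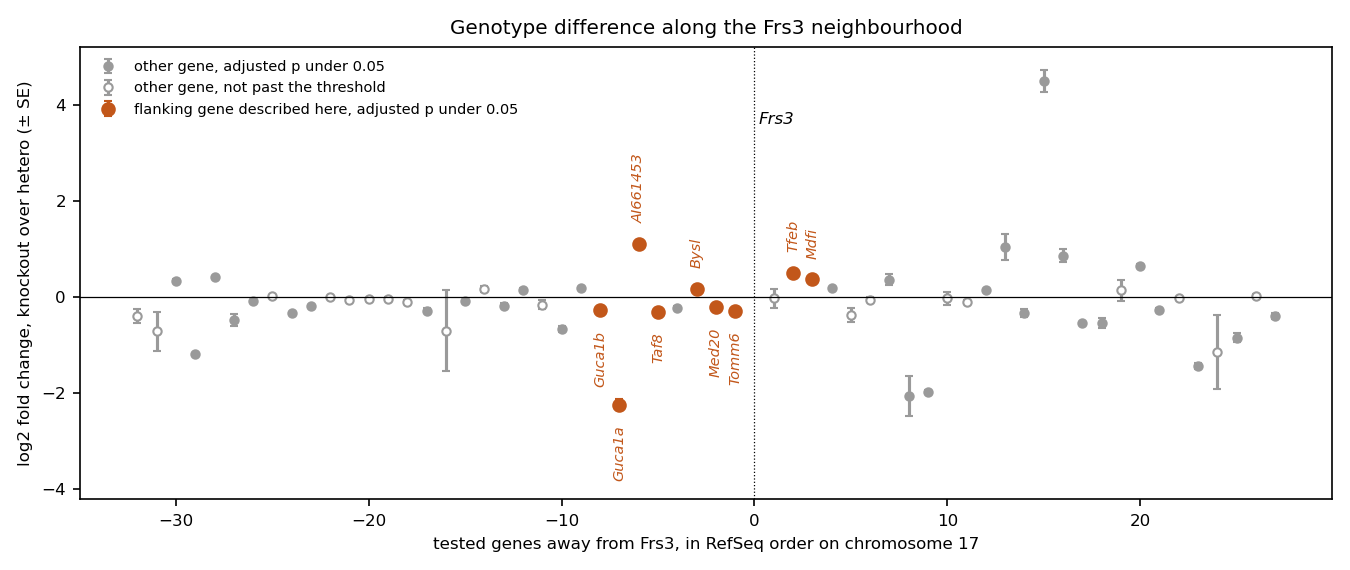
Log2 fold change ± SE, knockout over hetero (vertical axis), of the 9 tested flanking genes (orange) and the 25 other tested genes nearest on each side (grey), by the number of tested genes from Frs3 (horizontal axis). Filled dots passed an adjusted p of 0.05; Guca1a at -2.23 and AI661453 at 1.10 stand farthest from 0 among the flanking genes, and grey genes farther out reach from -2.06 to 4.49.

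**Figure D4:**
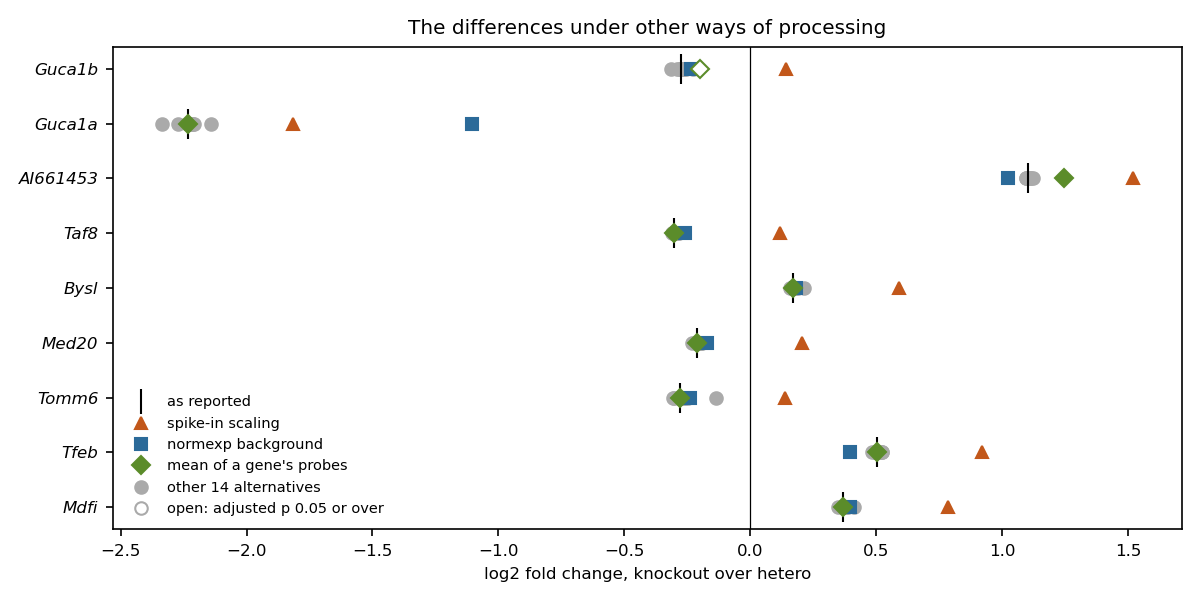
Log2 fold change, knockout over hetero (horizontal axis), of the 9 tested flanking genes as reported (black bar) and under 17 alternatives, where open symbols did not pass an adjusted p of 0.05. Guca1b, Taf8, Med20 and Tomm6 lie below 0 as reported and above it with spike-in scaling, and the Guca1a difference shrinks to -1.10 with normexp background correction.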

How the data were processed

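Cy3-labelled total RNA was hybridised to 6 single-colour Agilent arrays. Per the file headers, Agilent Feature Extraction 10.7.3.1 made the deposited files. Their processed intensity per spot, linear and not scaled between arrays, was used here. Which background correction went into it is not stated in the headers. Of 62976 spots per array, 3671 controls and 102 to 129 spots with outlier flags were left out. No spot other than controls, which were not counted for this, was saturated. The deposited value table equals the processed intensity divided by a constant per array (402 to 484), within 1% for 100% of probes spotted once, with column medians of 0.159 to 0.163 on knockout and 0.159 to 0.169 on hetero arrays. Its scale is thus linear and uncentred, with 46598 probes.

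Log2 intensities were averaged per probe and scaled by each array's 75th percentile (465 to 487 on knockout and 404 to 416 on hetero arrays). Probes were named through RefSeq accessions (GRCm38.p6, names, gene order and promoter windows, found for 9 of the 10 genes). Probes well above background on at least 3 arrays were kept, and each gene was read by its brightest kept probe. The comparison used limma 3.58.1 (lmFit, eBayes; R 4.3.3) without covariates and with Benjamini-Hochberg adjustment over 15838 genes; probes were fitted likewise over 35427 probes. The fitting step was tested on simulated data in which, unlike here, only a small share of the genes differed.

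The genes and lists were chosen with earlier results of these data known. Named are the 10 genes, Frs3, tested genes between them, per list the 3 other genes with the smallest p, and the 3 profiles most like the largest change. Some genes that this rule or a list would name are not reported here. Normexp used the median spot signal. The arrays shared 1 slide and 1 scan. On the slide the hetero arrays lay in columns 1 and 3 and the knockout arrays in columns 2 and 4. Effects of slide column and of genotype therefore cannot be told apart. Same-numbered replicates did not deviate together across genes (correlations -0.115, -0.0179 and -0.0056), so the numbers were not taken as pairs. Alternatives covered scaling (median, quantile and E1A spike-in probes), background, filter, probe choice, blocks and leaving out each array. The number of arrays limits the precision.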

Additional observations from a re-analysis of the deposited data

How the results depend on the processing

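Among 17 alternatives, Guca1a, AI661453, Bysl, Tfeb and Mdfi kept their direction and their call in all. With spike-in scaling, which adds 0.42 to every log2 fold change by construction, Guca1b (0.14), Taf8 (0.12), Med20 (0.21) and Tomm6 (0.14) were higher in knockout spheres. The numbers higher and lower were then 8 and 1 for the flanking genes, 31 and 7 for the 50 nearest other genes, 123 and 9 for the 144 partner genes and 11487 and 1260 for all genes, against 4 and 5, 11 and 19, 39 and 28, and 4416 and 5155 as reported. With median scaling 24 partner genes were higher and 18 lower, with a median standard error of 0.071 in place of 0.041 over all genes, and Med20 missed the threshold (-0.19, adjusted p = 0.0679). Averaging the probes of Guca1b lost its call (-0.20, adjusted p = 0.117). Without each array in turn, 4 flanking genes were higher and 5 lower every time, and 10 of their 11 tested probes were called. All-gene counts were then 3902 to 4111 higher and 4572 to 4858 lower. With replicate numbers as a block, 4 flanking genes were higher and 5 lower, and all genes gave 3934 and 4562. Dim signals limit Usp49 and Frs3.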
